A study of Mus musculus with 10 samples.

Results

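P2 cells are the committed preadipocytes of white fat, the adipocyte precursors marked by Col15a1 and Fgf10, and 889 of the 10914 cells in the table met the definition used here. A cell was first called stromal when UMIs (unique molecular identifiers, 1 per captured RNA molecule) of the pan-stromal genes Col1a1, Col3a1, Dcn, Gsn, Lum, Pdgfra, Col1a2 and Serpinf1 made up at least 4% of its UMIs. A stromal cell was then called P2 when its UMIs of Col15a1, Fgf10, Icam1, Lpl, Cdh11, Adam12 and Col5a3 summed to at least 2 and to more than its sums for P1 genes (Pi16, Dpp4, Sema3c, Fndc1, Smpd3, Anxa3, Akr1c18) and for P3 genes (Inmt, Igfbp3, Gdf10, Fmo2, Clec11a, C7, Chrdl1, F3). Of 2532 stromal cells, the same rule with the other sums gave 395 P1 cells and 106 P3 cells, and 1142 stromal cells met none of the 3 definitions.

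The cells came from the SVF (stromal vascular fraction: what remains of a fat pad digested with collagenase II and DNase I after its adipocytes float off) of inguinal white adipose tissue (iWAT), the subcutaneous depot of the groin. The series text names 1 lean Bbs8-/- mouse (Bbs8 KO) and 1 lean Bbs8+/+ mouse (Bbs8 WT), both 7 weeks old. Bbs8, also called Ttc8, encodes a subunit of the BBSome, and the KO animals lack it in the whole body, not in fat precursors alone. RNA was captured by Seq-Well S3, where single cells settle with barcoded beads in small wells. The columns of the table fall into 10 barcode sets, 5 per genotype, named KO5_p2, KO5_p3, KO6_p1, KO6_p2 and KO6_p3, and WT3_p1, WT3_p2, WT3_p3, WT4_p2 and WT4_p3. With 1 mouse per genotype there is no replicate of a genotype and no test was made. Every interval below is a 95% interval that covers counting error only, and a range over barcode sets is a range over technical libraries.

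In adipose tissue the stromal precursors are thought to lie along a path from P1 interstitial progenitors, which keep the most stem-like character, to P2 preadipocytes, which have begun to express genes of fat storage. P3 cells, also called adipogenesis regulators, are described as resistant to differentiation and as holding it back in their neighbours. The BBSome carries receptors into and out of the primary cilium, the antenna through which precursors receive Hedgehog and other signals, and the study asked what its loss does to the fate of these cells.

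Depth was low. The P2 cells held between 136 and 2172 UMIs each. The 550 KO P2 cells held 303409 UMIs in all, with medians of 409.5 UMIs and 257 genes per cell, and the 339 WT P2 cells held 162554 UMIs, with medians of 368 UMIs and 209 genes. The KO sets contributed 102 to 127 P2 cells each and the WT sets 46 to 109. Barcodes recurred in more than 1 set for 103 cells of the table, of which 12 were P2 cells. Gm42418, a transcript that overlaps ribosomal RNA sequence, took 116496 CPM (UMIs scaled to a fixed total per library) in KO and 136951 CPM in WT P2 cells.

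The deleted gene could not be checked in the P2 cells. Ttc8 had 0 UMIs in P2 cells of both mice, which allows a level of up to 9.89 CPM in KO and 18.5 CPM in WT. Over all cells of the table it had 0 UMIs in KO and 5 in WT.

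The genes that chose the cells are given first, as a description. Lpl, lipoprotein lipase, which releases fatty acids from circulating lipoproteins, supplied 2368 UMIs, 51.5% of the P2 sum, and was detected in 81.6% of the 889 cells. Col5a3, a chain of type V collagen, followed with 891 UMIs in 54.1% of cells. Col15a1, the chain of a collagen that sits at basement membranes, had 694 UMIs in 46.5% of cells. Cdh11, a cadherin of mesenchymal cells, was detected in 20.02% of cells, Fgf10, a secreted growth factor of the fat stroma, in 15.4%, and Adam12, a membrane metalloprotease, in 13.7%. Icam1, an adhesion molecule used as a surface marker of preadipocytes, was detected in only 27 cells, 3.0%. The cells named for Col15a1 and Fgf10 were thus picked mainly through Lpl, Col5a3 and Col15a1. Without Lpl in the sum 357 of the 889 cells (40.2%) were lost, without Col5a3 132 (14.8%) and without Col15a1 104 (11.7%).

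In the mm10 (GRCm38) assembly Lpl is annotated at chr8:68880491-68907448, Col15a1 at chr4:47208161-47313167, Fgf10 at chr13:118669791-118792115 and Icam1 at chr9:21015985-21028817, all 4 protein-coding genes on the plus strand. UMIs were counted per gene, so the counts do not place a read in an exon or an untranslated region.

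Most cells carried few of these genes at once. A single rule gene was detected in 21.5% of P2 cells, a pair in 42.3%, 3 genes in 22.0%, 4 in 9.6%, 5 in 3.9%, 6 in 5 cells and all 7 in 1 cell. The median P2 sum was 4 and the highest 27, and 70.3% of the cells had no UMI of any P1 or P3 rule gene. Of 137 cells with Fgf10, 120 (87.6%) also had Lpl and 63 (46.0%) had Col15a1. Of the cells with Cdh11, 60.7% had Col15a1, and of those with Adam12, 63.1% had Col5a3.

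**Figure D1:**
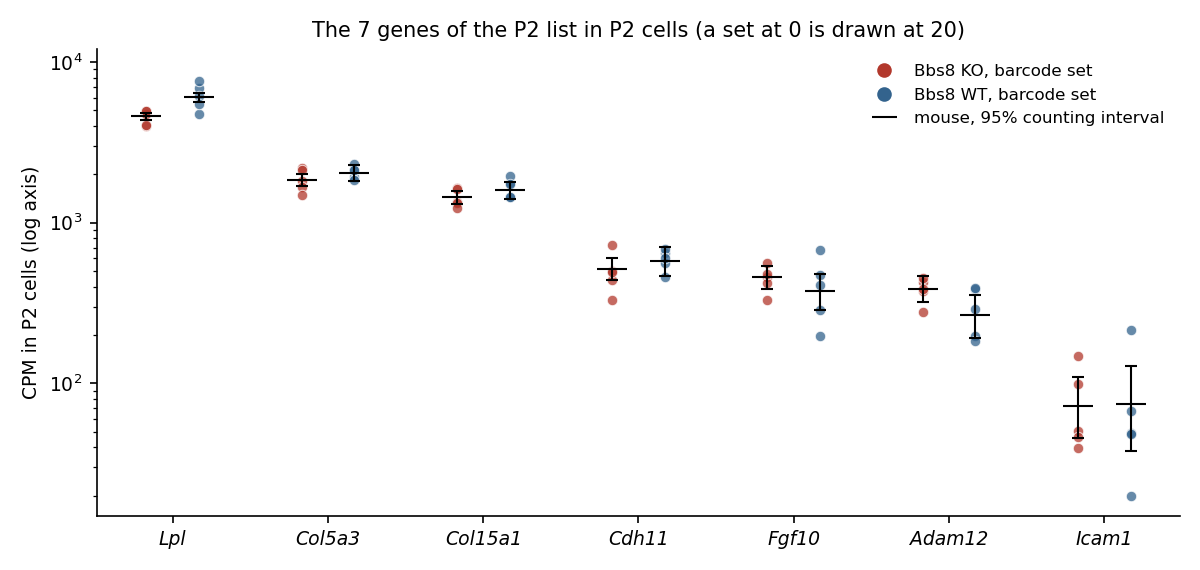
Level of each P2 rule gene (CPM, log axis) in the P2 cells of each barcode set (points; a set with no UMI is drawn at 20 CPM) and of each mouse (bar with its 95% counting interval). Lpl stands highest in both mice (4578 CPM in KO, 6023 in WT), Icam1 lowest, and the sets of the 2 mice overlap for all 7 genes.

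Between the mice the rule genes were close. Lpl was at 4763, 4004, 4975, 4965 and 4052 CPM in the KO sets and at 4712, 6862, 7649, 6158 and 5454 CPM in the WT sets. Only the lowest WT set fell among the KO sets, and the log2 ratio of KO over WT was -0.40 (-0.51 to -0.28). It was -0.14 in P2 cells without an immune marker UMI and -0.20 at a pan-stromal share of at least 8%. Col15a1 was between 1237 and 1654 CPM in the KO sets and between 1443 and 1961 in the WT sets, with a log2 ratio of -0.14 (-0.37 to 0.08). Adam12 was at 389 CPM in KO and 265 in WT (0.55, 0.04 to 1.09), and Fgf10 at 458 and 375 (0.28, -0.16 to 0.75). In cells without an immune marker UMI Adam12 was at 0.73 and Fgf10 at 0.89, and at a pan-stromal share of at least 8% at 0.97 and 0.76. Col5a3 (-0.15), Cdh11 (-0.17) and Icam1 (-0.02) had intervals that hold 0. Cells were chosen for these genes, so equal levels were partly built in.

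The rule genes were also detected in T and B cells, where Lpl and Col15a1 are not known to be expressed, and what part free RNA had in this was not tested. Lpl was detected in 7.3% of KO and 6.6% of WT T cells and in 9.8% and 13.3% of B cells, far under the P2 cells. Col15a1 was found in 1.7% and 3.3% of T cells and in 3.2% and 2.9% of B cells. Icam1 was found in 1.1% of KO T cells and 1.6% of KO B cells against 3.1% of KO P2 cells. In WT it was found in 2.9% of P2 cells, in 1 of 105 B cells (0.95%) and in 0 of 91 T cells, which allows a share of up to 3.30%.

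Values on either side of the thresholds are given as a description. The 249 P2 cells just inside, with a P2 sum of 2, had a median of 271 UMIs and levels of 2550 CPM for Col4a1, 4437 for Postn and 1097 for Fabp4. The 306 stromal cells just outside, with a sum of 1 and no P1 or P3 UMI, had 227 UMIs and levels of 2160, 4125 and 1280 CPM for these genes. At the stromal threshold 134 P2 cells had a pan-stromal share of 4 to 5% and 125 cells outside had 3 to 4% with the P2 sums met. Another 146 stromal cells had a sum of at least 2 that did not exceed both other sums, and they held Fabp4 at 123, Postn at 1794 and Col4a1 at 1310 CPM. In all, 529 cells met the sums but not the stromal share (428 KO, 101 WT). They held Fabp4, a fatty acid binding protein of adipocytes, capillary endothelium and macrophages, at 3891 CPM and Col3a1 at 6376 CPM, against 37885 CPM of Col3a1 in P2 cells.

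P2 cells made up a smaller part of the stromal cells in the Bbs8 KO mouse. They were 31.1% (29.0 to 33.3, exact Clopper-Pearson interval) of 1768 KO stromal cells and 44.4% (40.8 to 48.0) of 764 WT stromal cells, a difference of -13.3 percentage points (Newcombe interval -17.4 to -9.14). The KO sets gave 28.7, 28.3, 34.99, 30.98 and 32.7% and the WT sets 42.7, 40.3, 51.1, 43.6 and 46.5%. The highest KO set lay under the lowest WT set. By the number in the set name the shares were 28.5% for KO5, 32.9% for KO6, 43.9% for WT3 and 44.7% for WT4. P1 cells were 16.9% of KO and 12.7% of WT stromal cells, P3 cells 3.28% and 6.28%, and stromal cells outside the 3 definitions 48.8% and 36.6%. Among cells with a definition, P2 cells were 60.7% in KO and 70.0% in WT, with sets from 58.1 to 64.1% and from 65.1 to 75.4%.

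**Figure D2:**
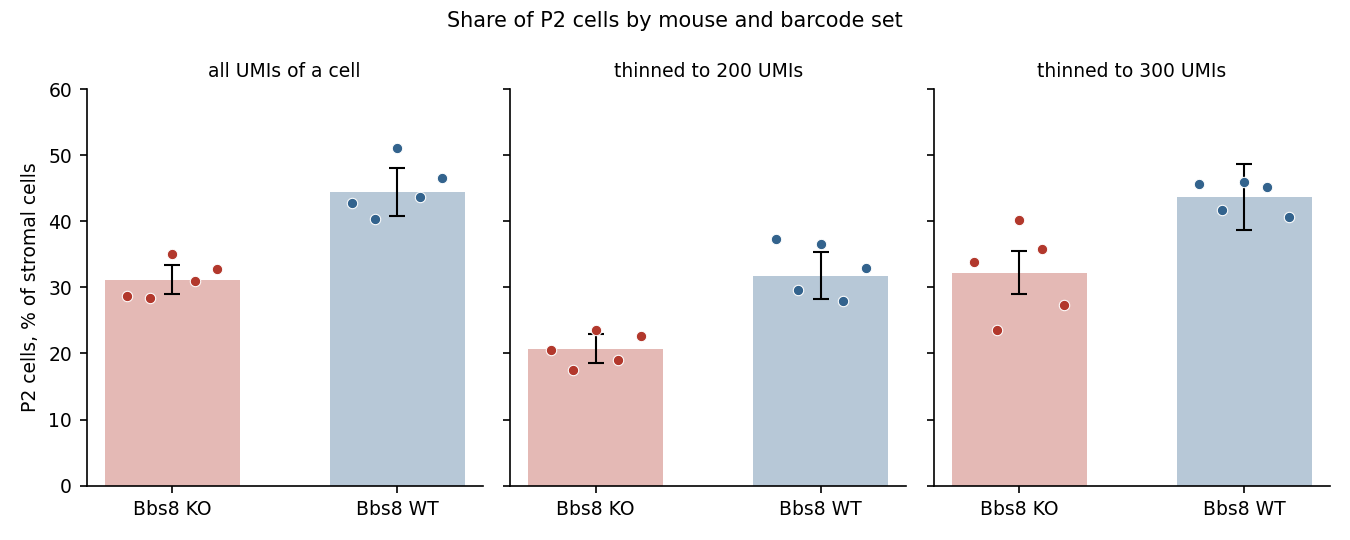
P2 cells as a percentage of stromal cells (y axis) in each mouse (bars with exact 95% binomial intervals) and each barcode set (points), with all UMIs of a cell and with the rule applied to cells thinned to 200 or 300 UMIs. KO sets lie under all WT sets in each panel, most narrowly at 300 UMIs (23.6 to 40.2% in KO, 40.6 to 45.9% in WT).

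The size of that difference followed the choice of cells, and its direction did not change. The P2 share differed with depth. Over 4 UMI classes from low to high it was 15.4, 21.6, 36.6 and 53.0% of KO and 35, 32.1, 45.9 and 64.2% of WT stromal cells. With every cell of the table thinned to 200 UMIs, shallower cells left out and the whole rule applied again, P2 cells were 20.6% of the 1395 KO and 31.7% of the 681 WT cells then called stromal, and the sets did not overlap. Of the cells called stromal with all their UMIs, 73.0% in KO and 85.6% in WT had the 200 UMIs. With Lpl left out of the sum the shares were 19.5% and 24.5%, a difference of -4.96 points (-8.60 to -1.48), and the sets overlapped (16.0 to 25.6% in KO, 20.9 to 27.5% in WT). Among stromal cells without a UMI of an immune marker, T cell, B cell, macrophage or MHC class II, the shares were 37.0% and 45.7%, a difference of -8.75 points (-14.4 to -3.05), and the sets again overlapped. Lpl was also lower in KO outside the stroma, where 12.03% of KO and 16.0% of WT non-stromal cells held a UMI of it.

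As a share of all cells the P2 class was 6.12% in KO and 17.6% in WT, a difference of -11.5 points (-13.3 to -9.74). Stromal cells as a whole were 19.7% of KO and 39.6% of WT cells, so this share also carries the proportion of non-stromal cells in each suspension.

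Outside the rule genes, those far above both P1 and P3 cells in P2 cells of both mice together included Car3, Sdc1, Thbs1 and Palld, with the lipid genes Fabp4, Cd36 and Plin2 behind them. Folds here compare CPM over both mice, in 516 genes with at least 100 UMIs over all P2 cells and in none of the rule lists. Because P2, P1 and P3 cells were selected from the same matrix, these values describe the classes. The minimum was set in P2 cells alone, so genes high in P1 or P3 and low in P2 cells could not enter, and the balance of higher and lower counts is partly fixed by it. Past 2-fold higher in P2 over P1 were 51 of the 516 genes (9.88%) and 33 were lower (6.40%). Over P3 cells 67 were higher (13.0%) and 29 lower (5.62%), from only 56536 UMIs of P3 cells.

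Car3, a carbonic anhydrase that is abundant in adipocytes, was at 249 CPM in P2 cells and at 14.3 CPM in P1 cells. The 3 UMIs in P1 cells give a ratio of 17.4 with a log2 interval of 2.54 to 6.42. In P3 cells Car3 had 0 UMIs, so it was at least 4.69-fold higher in P2 cells, taking 3 counts as the limit over all P3 cells. Thbs1, thrombospondin 1, a matricellular protein that activates TGF beta, was at 356 CPM in P2 and 42.9 in P1 cells (8.31-fold), and had 0 UMIs in P3 cells (at least 6.71-fold). Both genes came mostly from the KO mouse, with 102 of 116 UMIs of Car3 and 157 of 166 of Thbs1 in P2 cells. In WT alone Thbs1 was at 55.4 CPM in P2 cells, under the 61.2 CPM that 0 UMIs in P1 cells allow, and Car3 had 14 UMIs in P2 and 1 in P1 cells (log2 interval -0.64 to 7.48), so neither was shown to be higher in P2 than in P1 cells of the WT mouse. Sdc1, the cell surface proteoglycan syndecan 1, was at 253, 23.8 and 17.7 CPM in P2, P1 and P3 cells. Its single UMI in P3 cells leaves that ratio between 1.33 and 9.16 on the log2 scale.

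Col18a1, the basement membrane collagen from which endostatin is cut, was at 865, 124 and 141 CPM in P2, P1 and P3 cells (6.99 and 6.11-fold). Nes, the intermediate filament nestin, was 11.1-fold over P1 and 4.97-fold over P3. Enpp2, autotaxin, which makes lysophosphatidic acid, was 8.28-fold and 4.46-fold higher, Palld, an actin crosslinker, 7.95-fold and 7.85-fold, and the imprinted noncoding RNA H19 4.74-fold and 4.19-fold. The P3 values in this paragraph rest on 3 to 8 UMIs each.

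Lipid genes belonged to the same set. Fabp4 was at 1234 CPM in P2 cells, 243 in P1 (5.08-fold) and 195 in P3 (6.34-fold). Cd36, the fatty acid translocase, was at 476, 110 and 124 CPM, and Plin2, a coat protein of lipid droplets, at 315, 80.9 and 53.1 CPM. Fabp4 and Cd36 were as high in the stromal cells outside the 3 definitions (1106 and 538 CPM), so neither gene was particular to P2 cells within the stroma. In those cells Car3 was at 133 CPM and Thbs1 at 193, between the P1 and P2 levels. Palld was at 345 CPM in them, not far under its 416 CPM in P2 cells.

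**Figure D3:**
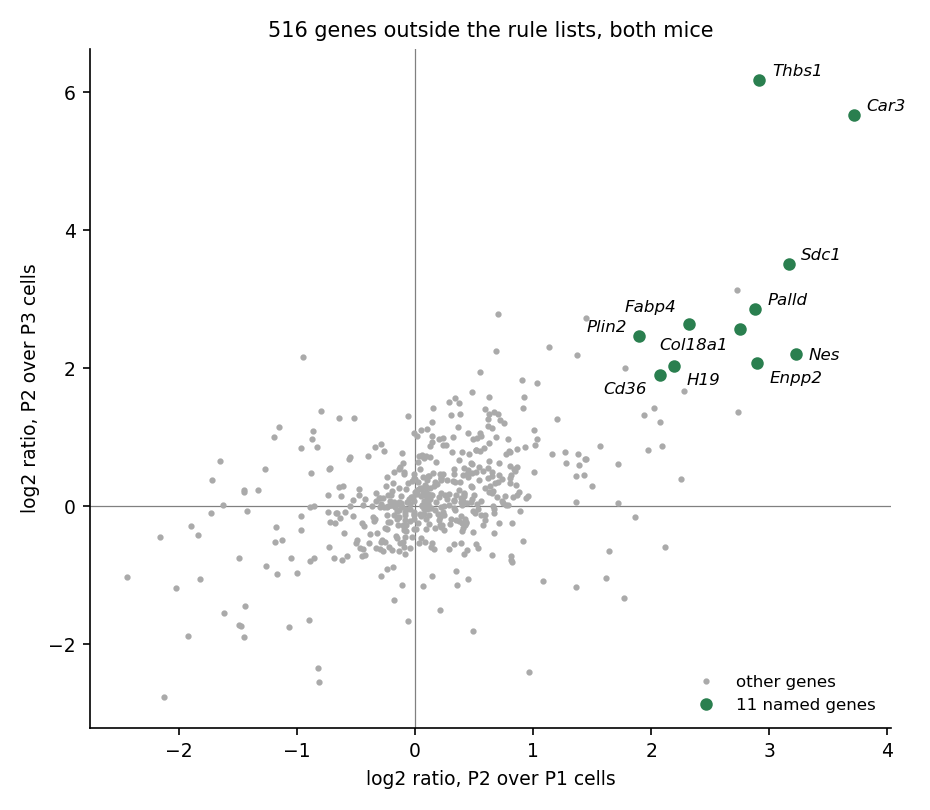
Log2 ratio of P2 over P1 cells (x axis) and of P2 over P3 cells (y axis) for 516 genes in both mice together, with a pseudocount of 5 CPM. The 11 named genes (green) lie at the upper right, and the heights of Car3 and Thbs1, with no UMI in P3 cells, depend on the pseudocount.

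Of the mature adipocyte markers with a row in the table, Car3 was the one detected. Adipoq, Plin1, Cidec, Retn, Slc2a4 and Lep had 0 UMIs in P2 cells of both mice, under 9.89 CPM in KO and 18.5 CPM in WT. Pparg, the master regulator of adipogenesis, had 17 UMIs in KO and 4 in WT. At this depth the label of committed preadipocytes could therefore not be checked with Pparg or Adipoq.

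Of the transcription factors that favour adipogenesis, 10 of 18 had at least 20 UMIs in P2 cells, and 8 of these 10 were above P1. Past 2-fold, 0 of the 5 with at least 100 UMIs differed from P1 in either direction, which is near the 9.88% higher and 6.40% lower among all genes. Klf9, a glucocorticoid-induced factor, had a log2 ratio over P1 of 0.94 and Nfib of 0.65, and over P3 they were at 0.13 and -0.71. Between the mice 0 of 5 were past 2-fold, beside 4.84% of all genes higher and 2.91% lower. Klf9 was at 316 CPM in KO and 572 in WT (-0.84, -1.28 to -0.43), while Ebf1 (-0.10), Nr3c1 (0.17) and Nfia (0.55) had intervals that hold 0. Only 2 of 10 listed inhibitors of adipogenesis reached 20 UMIs, too few to describe.

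The lipid uptake and storage list had 10 members of at least 20 UMIs, with a median log2 ratio over P1 that was 0.63 above the median of all genes tested. Of its 6 members with at least 100 UMIs 4 were past 2-fold higher than P1 (Fabp4, Cd36, Plin2 and Apoe) and 0 lower, beside 9.88% and 6.40% of all genes. Against P3 cells 3 of the 6 were past 2-fold higher and 0 lower, beside 13.0% and 5.62%, and Apoe was level (0.05). Between the mice the list lay at -0.23 relative to all genes, with 1 of the 6 members past 2-fold each way, beside 4.84% of all genes higher and 2.91% lower. Plin2 was higher in KO (402 against 154 CPM, log2 1.36, 0.76 to 2.07), although its KO sets (277 to 508 CPM) and WT sets (0 to 281) overlapped. It was at 0.75 with Lpl left out of the P2 sum and at 2.52 in cells without an immune marker UMI. Apoe was lower and is described below. Fabp4 (-0.20), Cd36 (-0.24) and Lrp1 (-0.24) had intervals that hold 0, and Angptl4, a secreted inhibitor of Lpl, was at 0.37 (0.09 to 0.66). Vldlr, a receptor for triglyceride-rich lipoproteins, missed the 100 UMIs by 1 and was at -1.31 (-1.95 to -0.74).

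Of 11 basement membrane genes with at least 100 UMIs 4 were past 2-fold higher in P2 than in P1 cells and 1 lower, beside 9.88% and 6.40% of all genes. Of 13 members with at least 20 UMIs 8 lay above P1, and the list median of 0.31 above all genes went to -0.17 with cells weighted equally. Type IV collagen chains form the scaffold of every basement membrane. Col4a1 was at 3103 CPM in P2 and 724 in P1 cells (log2 2.09, 1.86 to 2.35) and Col4a2 at 1863 and 381 (2.27, 1.96 to 2.64), in both mice alike (2.00 in KO and 2.11 in WT for Col4a1). Col18a1 was the farthest above P1 at 2.76, Hspg2, perlecan, was at 1.01, and the laminin chain gene Lamb2 was the one lower member at -1.45. Over P3 cells 4 of 11 were higher and 1 lower, beside 13.0% and 5.62% of all genes.

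Between the mice 0 of the 11 basement membrane genes were past 2-fold (7.75% of all genes), and the list median was -0.05 relative to all genes. Its sets separated for 3 members, all lower in KO, beside 31 of 516 genes (6.01%) with sets separated in that direction. Col4a1 was at 2455, 3148, 2786, 2559 and 2722 CPM in the KO sets and at 3684, 3529, 4893, 3692 and 3692 CPM in the WT sets. All KO sets lay lower, with a log2 ratio of -0.48 (-0.63 to -0.33). Without immune marker cells it was at -0.27 and at a pan-stromal share of at least 8% at -0.25. Col4a2 was at -0.40 (-0.59 to -0.20), and at -0.17 and -0.0891 under these settings. Lama2, the laminin alpha chain of muscle and fat stroma, was at -0.62 (-0.86 to -0.37). Sparc, a collagen-binding glycoprotein, was level at 9439 CPM in KO and 9652 in WT.

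Of 6 interstitial collagens with at least 100 UMIs and outside the selection rule, 0 were past 2-fold between the mice and 0 had separated sets, near the 7.75% and 11.0% of all genes, and the list median was 0.07 relative to all genes. Col6a3, a chain of type VI collagen, was the farthest at 0.40 (0.21 to 0.60), and Col5a1 (0.19), Col5a2 (0.08), Col6a1 (-0.08) and Col6a2 (-0.14) had intervals that hold 0. Col14a1, a collagen of fibril surfaces, was the one member past 2-fold against P1, lower in P2 cells (-1.84). The list does not hold Col1a1, Col1a2 and Col3a1, which helped to choose the cells, and the 8 pan-stromal rule genes summed to 81797 CPM in KO and 93710 in WT (-0.20, -0.23 to -0.17). Of 11 genes for enzymes and chaperones of collagen assembly 0 were past 2-fold between the mice (7.75% of all genes) and the median was -0.10. Lox, the collagen crosslinking enzyme, was higher than in P1 cells (1.005), and Pcolce2, an enhancer of procollagen cleavage, was lower than in P1 (-1.62) and lower in KO than WT (-0.99, -1.45 to -0.55).

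Of 6 matricellular genes 3 were past 2-fold higher in P2 than in P1 cells, beside 9.88% of all genes, and the list median was 1.10 above all genes (0.53 with cells weighted equally). Without that centring the median was 1.24 in both mice together, 0.73 in KO and 0.58 in WT. Postn, periostin, was at 5440 CPM in P2, 1986 in P1 and 814 in P3 cells. Sparcl1, an antiadhesive relative of Sparc, was at 2226 CPM in P2 and 462 in P1 cells (2.26, 1.97 to 2.58). Fn1, fibronectin, was lower than in P1 cells (-0.52) and higher than in P3 cells (1.28). Between the mice Thbs1 was the one of 6 past 2-fold, beside 4.84% of all genes higher and 2.91% lower. Postn was at 0.20 (0.08 to 0.32), at 0.0518 with cells weighted equally and at 0.59 at a pan-stromal share of at least 8%. Sparcl1 was at -0.66 (-0.84 to -0.48) with separated sets, and at -0.20 in cells without an immune marker UMI. Cd9, a tetraspanin that the study used to grade fibrogenic precursors, had only 50 UMIs and a log2 ratio of 0.05 (-0.83 to 0.99).

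Of 7 elastic fibre genes with at least 100 UMIs 0 were past 2-fold higher than P1 and 4 lower, beside 9.88% and 6.40% of all genes, and the median was -1.30 relative to all genes. Over P3 cells 3 of 7 were higher and 1 lower, beside 13.0% and 5.62%. Fbn1, fibrillin 1, was at 1541 CPM in P2 and 5091 in P1 cells (-1.72, -1.86 to -1.59), and Mfap5, which binds it, at 642 and 2024 CPM (-1.65). Between the mice the median was -0.46 relative to all genes, with 0 members past 2-fold higher, 1 lower and 2 with sets separated downward (6.01% of all genes). Fbln2, fibulin 2, was at 435 CPM in KO and 911 in WT (-1.06, -1.42 to -0.72), and at -0.42 in cells with a pan-stromal share of at least 8%. Eln, elastin, was at 168 and 308 CPM (-0.85, -1.46 to -0.28), while Fbn1 was at 0.21 (-0.02 to 0.45). Of 4 proteoglycans Bgn was past 2-fold higher in P2 than P1 (1.62), and Ogn (-1.42) and Gpc3 (-1.44) lower, beside 9.88% and 6.40% of all genes. Against P3 cells 0 of the 4 were past 2-fold higher and 2 lower, Bgn (-1.04) and Gpc3 (-1.44), beside 13.0% and 5.62%. Ogn was higher in KO (669 against 345 CPM, 0.95, 0.52 to 1.41) with sets that overlapped.

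Of 12 proteases and inhibitors 0 were past 2-fold between the mice (7.75% of all genes), and 3 had separated sets, each lower in KO, beside 6.01% of all genes. Mmp2, a gelatinase that cleaves basement membrane collagen, was at 1335 CPM in KO and 2313 in WT (-0.79, -0.999 to -0.587), with -0.50 without immune marker cells and -0.41 at a pan-stromal share of at least 8%. Ctsk, cathepsin K, was at -0.93 (-1.30 to -0.57) and Mmp19 at -0.91 (-1.40 to -0.44). Mmp14 was level (0.01, -0.28 to 0.30). Adamts12 was higher in P2 than in P1 cells (2.02, 1.61 to 2.52) and Timp2, an inhibitor of Mmp2, lower (-1.18).

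Of 9 genes of the progenitor surface with at least 100 UMIs, 3 were past 2-fold lower in P2 than in P1 cells and 2 higher, beside 6.40% and 9.88% of all genes, and 4 of 9 lay above 0. The lower ones were markers of stem-like cells. Ly6a, which encodes SCA1, was at 828 CPM in P2 and 3376 in P1 cells, Ly6c1 at 320 and 1757, and Cd34 at 464 and 1652. The 2 higher were Aoc3 (2.73, 1.86 to 4.13) and Pdgfrb (1.16, 0.57 to 1.88), both known from mural cells as well. Between the mice 0 of 9 were past 2-fold (7.75% of all genes). Ly6a was at 966 CPM in KO and 572 in WT (0.75, 0.41 to 1.11) and Ly6c1 at 0.84 (0.29 to 1.45), while Cd34 was at -0.60 (-1.004 to -0.203), so the 3 surface genes did not move one way.

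Among the insulin-like growth factor binding proteins Igfbp7 was higher in P2 than P1 (1.77) but lower than in P3 cells (-1.33). Igfbp5 (-1.72) and Igfbp6 (-1.62) were lower than in P1 cells. Between the mice 0 of 5 genes of the axis were past 2-fold, near the 7.75% of all genes. Of growth factor receptors Egfr was higher than in P1 (1.27) and Tgfbr2 lower (-1.45). Of 6 complement genes with at least 100 UMIs 1 was past 2-fold lower than in P1 and 4 lower than in P3 cells, beside 6.40% and 5.62% of all genes. C3, the central complement component, was at 1122 CPM in P2, 4905 in P1 and 7659 in P3 cells. Cxcl12, a chemokine of stromal niches, was at 175 CPM in KO and 381 in WT (-1.10, -1.68 to -0.57) with sets that overlapped. Egr1, an immediate early gene that tissue digestion can induce, was at 247 and 437 CPM (-0.81, -1.31 to -0.33) but at -0.17 at a pan-stromal share of at least 8%, and 2 of 9 immediate early genes with at least 20 UMIs lay above 0.

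Hedgehog and cilium genes were nearly out of reach. Of 12 Hedgehog genes listed, 4 had at least 20 UMIs and 1 had at least 100, and the list summed to 174 UMIs in KO and 107 in WT. Gas1, a Hedgehog co-receptor, was at 0.27 (-0.24 to 0.81) and Ptch1 had 0 UMIs in both mice. Of 18 BBSome and cilium genes 0 reached 100 UMIs, with 137 and 80 UMIs in sum. The summed log2 ratio of KO over WT was -0.20 (-0.55 to 0.16) for the Hedgehog list and -0.12 (-0.53 to 0.29) for the BBSome and cilium list, and both intervals hold 0.

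Across all 516 genes the P2 cells of the mice differed past 2-fold in 40 (7.75%), of which 25 were higher in KO (4.84%) and 15 lower (2.91%). KO cells held most of the UMIs, so a gene could reach 100 UMIs through KO alone more easily than through WT alone, and the balance of 25 to 15 is no finding. With a minimum of 200 UMIs 3 were higher and 11 lower. Barcode sets separated in 57 genes (11.0%), 26 higher (5.04%) and 31 lower. Both held for 13 genes higher and 12 lower. The median log2 ratio of all genes was 0.01. No replicate animal stands behind these ratios, which compare 1 mouse with another.

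Thbs1, of the matricellular list, was at 702, 458, 464, 407 and 572 CPM in the KO sets and at 0, 49.0, 0, 83.9 and 72.4 CPM in the WT sets. No set came near the other group, with 157 UMIs against 9 and a log2 ratio of 3.11 (2.26 to 4.38). A UMI of it was found in 99 KO cells (18.0%) and 6 WT cells (1.8%). Among P1 cells it had 9 UMIs in KO and 0 in WT, where 0 UMIs allow up to 61.2 CPM. The P1 ratio of 3.61 thus depends on the pseudocount, and Thbs1 was not shown to be higher in KO P1 cells. Among non-stromal cells it was not clearly higher (0.50, sets overlapping). The gene lies at chr2:118111876-118127133 on the plus strand.

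Car3 was higher in KO P2 cells, at 240, 339, 411, 390 and 278 CPM in the KO sets and at 85.7, 98.03, 225, 67.1 and 48.3 CPM in the WT sets. The highest WT set lay just under the lowest KO set, and the log2 ratio was 1.90 (1.15 to 2.89). It was detected in 56 KO and 8 WT cells. Outside the stroma its CPM ratio was -1.37 with overlapping sets, while the share of cells with a UMI was 2.54% in KO and 1.46% in WT. Plin2, given above, was likewise higher in KO P2 cells and at -0.91 outside the stroma.

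Rpsa-ps10 had the highest ratio, 122 UMIs against 1 (5.19, 3.53 to 11.35), and nearly the same ratio in non-stromal cells (5.07). Its ratio in P1 cells (6.24) is less certain, since WT P1 cells held only 49059 UMIs, where 0 UMIs allow up to 61.2 CPM. Rpsa-ps10 is annotated as a processed pseudogene of the ribosomal protein gene Rpsa at chr3:150072658-150073542 on the minus strand, and reads of such a copy and its parent cannot be told apart with certainty.

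Immune genes were also among those higher in KO. Ptprc, which encodes the pan-leukocyte antigen CD45, was at 316 CPM in KO and 55.4 in WT (2.41, 1.53 to 3.69), and 1.24 in non-stromal cells. The MHC class II genes H2-Ab1 (1.91, 1.41 to 2.49) and H2-Eb1 (1.61, 0.997 to 2.35) went with it. The remaining genes named by the rule were Npm1, a nucleolar chaperone (1.23, 0.57 to 2.02, and 0.59 at a pan-stromal share of at least 8%), Errfi1, a feedback inhibitor of Egfr (1.19, 0.55 to 1.94), Arpc2, a subunit of the actin nucleating complex (1.18, 0.73 to 1.69), and Sh3bgrl3 (1.12, 0.50 to 1.83).

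Of the genes lower in KO P2 cells Apoe had the most UMIs. Apoe, the apolipoprotein of lipid transport, was at 5594, 5578, 5055, 6066 and 5861 CPM in the KO sets and at 11181, 14999, 14286, 17871 and 13587 CPM in the WT sets. Every WT set was far above every KO set, and the log2 ratio was -1.43 (-1.52 to -1.34). Apoe was detected in 70.7% of KO and 93.5% of WT P2 cells. It was lower in KO P1 cells as well (-1.68) and in non-stromal cells (-0.79, sets overlapping).

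Peg3, an imprinted zinc finger gene, was at 290 CPM in KO and 947 in WT, with sets from 232 to 356 and from 514 to 1372 CPM (-1.69, -2.10 to -1.32). It was at -1.51 in non-stromal cells. Hsp90b1, the chaperone GRP94 of the endoplasmic reticulum, was at 1463 and 3113 CPM (-1.09, -1.28 to -0.90), and at -0.92 in P1 and -1.04 in non-stromal cells with sets separated in all 3. Its companion Hspa5 was at -0.45 (-0.65 to -0.25) with overlapping sets.

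Another 3 of the lower genes encode extracellular proteins. Clec3b, tetranectin, was at -1.46 (-1.79 to -1.15), Aebp1, a collagen-binding carboxypeptidase-like protein, at -1.36 (-1.66 to -1.08), and Penk, proenkephalin, at -1.27 (-1.69 to -0.89). Penk was at -0.94 at a pan-stromal share of at least 8% and at -1.76 with cells weighted equally. Atf5, a stress-responsive transcription factor, was at -1.37 (-1.86 to -0.93), Cygb, cytoglobin, at -1.30 (-1.70 to -0.93) and Txnip, an inhibitor of thioredoxin, at -1.10 (-1.44 to -0.77). For the genes described above by the size of their separated difference between the mice, the cell with the most UMIs held at most 9.06% of a gene's UMIs.

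**Figure D4:**
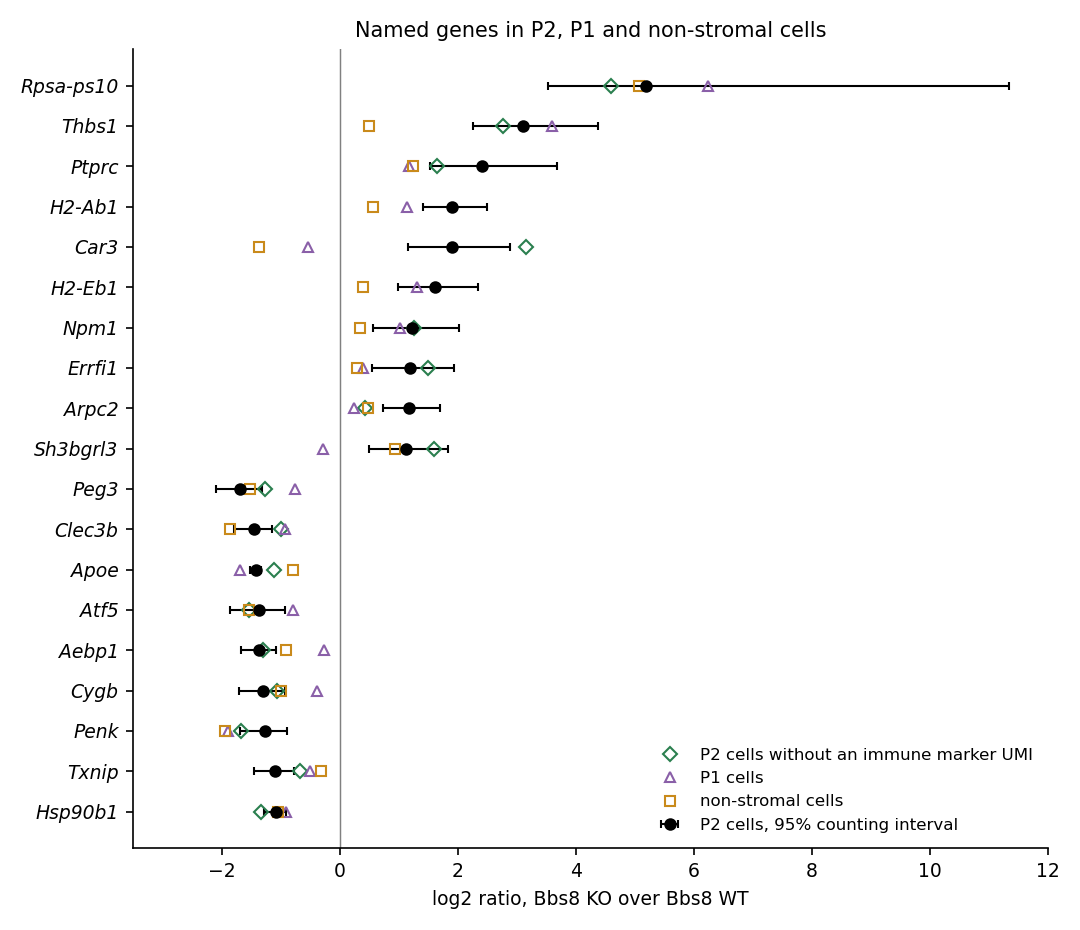
Log2 ratio of Bbs8 KO over Bbs8 WT (x axis) in P2 cells (black, exact 95% interval) for the 10 genes highest and 9 of the 10 lowest among those with separated barcode sets, beside P2 cells without an immune marker UMI, P1 cells and non-stromal cells. Without immune marker UMIs Thbs1 and Car3 stay far above 0, and Apoe, Peg3 and Hsp90b1 stay below 0. The P1 value of Thbs1, with 0 UMIs in WT, depends on the pseudocount.

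Some of these separations were also seen outside P2 cells. Of the 26 genes with sets separated upward in KO P2 cells 8 were separated the same way in non-stromal cells, and of the 31 downward 10 were, beside 8.91% of all 516 genes separated upward and 12.02% downward there. In P1 cells, which are fewer, 4 of 26 and 4 of 31 were, beside 3.68% and 1.55% of all genes.

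Markers of other cell types moved with the genotype inside the P2 class, and so did the make-up of each suspension. Of 8985 KO cells 1298 were T cells and 1852 B cells, against 91 and 105 of 1929 WT cells. What part this had in the values of P2 cells was not tested. Summed T cell markers were at 521 CPM in KO and 215 in WT P2 cells (1.25, 0.74 to 1.85), B cell markers at 867 and 308 (1.48, 1.05 to 1.96), macrophage markers at 1038 and 683 (0.60, 0.29 to 0.93), MHC class II genes at 1846 and 597 (1.62, 1.32 to 1.96) and endothelial markers at 359 and 123 CPM (log2 ratio 1.51). At least 1 B cell marker UMI was found in 27.1% of KO and 8.6% of WT P2 cells, and a T cell marker UMI in 17.3% and 5.6%. P1 cells held T cell markers in nearly the same share in KO, 17.1%, and in 3.1% of cells in WT, the latter from 3 UMIs.

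The sets of the mice separated for B cell markers (757 to 942 CPM in KO, 98.03 to 428 in WT), and for MHC class II genes the lowest KO set and the highest WT set were both at 1457 CPM. They overlapped for T cell (351 to 763, 56.2 to 386), endothelial (263 to 478, 24.1 to 337) and macrophage markers (661 to 1686, 145 to 2356). Every T cell, B cell, macrophage, MHC class II and endothelial marker on the lists had a UMI in some P2 cell. Lymphocytes held each other's markers as well. A B cell marker UMI was found in 34.2% of KO and 14.3% of WT T cells, and a T cell marker UMI in 26.2% and 18.1% of B cells. Of the 7 adipocyte markers with a row 6 had 0 UMIs, and only Car3 was detected. Pericyte markers summed to 66 UMIs in KO and 21 in WT (0.73, 0.02 to 1.53), with Higd1b and Cspg4 at 0, and Schwann cell markers to 23 and 14 UMIs, with Sox10 at 0.

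**Figure D5:**
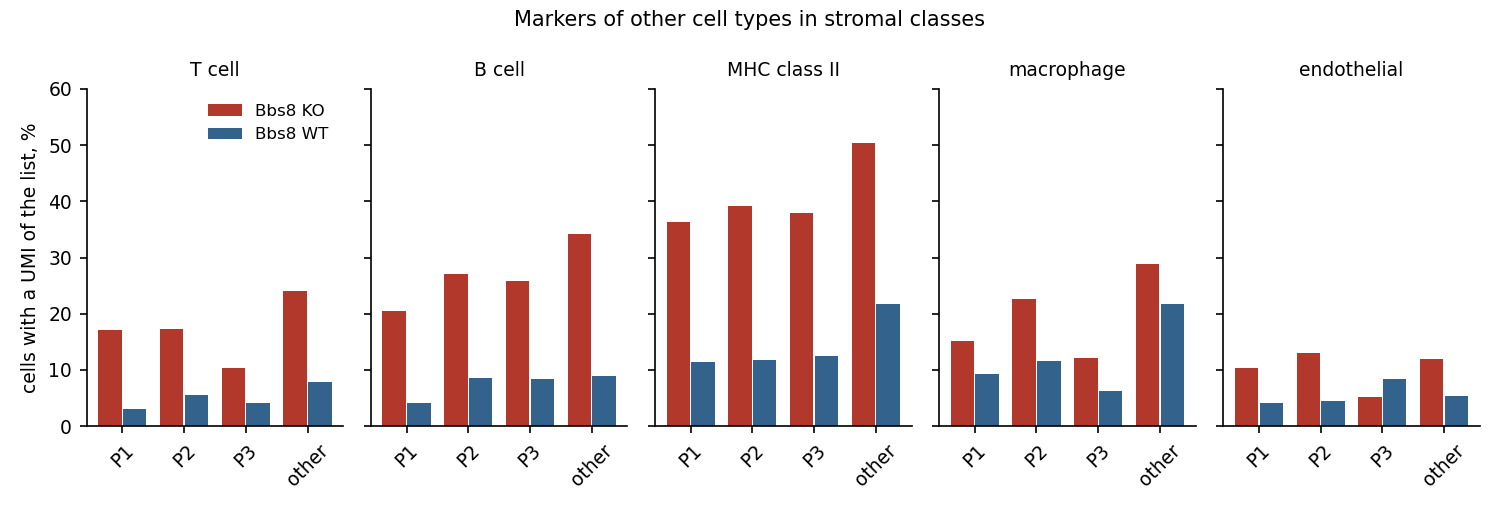
Percentage of P1, P2, P3 and other stromal cells of each mouse with at least 1 UMI of a marker list (y axis), for 5 lists of other cell types. In P2 cells every list is higher in Bbs8 KO, MHC class II the most (39.1% against 11.8%), and the other stromal classes show the same except for endothelial markers in P3 cells.

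Leaving out cells with such UMIs shortened the list of higher genes, in part by construction. At least 1 T cell, B cell, macrophage or MHC class II UMI was found in 58.9% of KO and 27.1% of WT P2 cells, which left 226 KO and 247 WT cells and 197 genes with at least 100 UMIs. Of these genes 3 were past 2-fold higher in KO (Aplp2, Ogn and Ifi27) and 11 lower. Of the 25 genes higher before, 16 were still past 2-fold but only 1 still had 100 UMIs. The 3 MHC class II genes among the 25 (H2-Aa, H2-Ab1 and H2-Eb1) and Lyz2 could not stay, since every cell with their UMIs was left out. Of the 15 lower before, 10 were still past 2-fold and 12 still had 100 UMIs.

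In the cells without those UMIs Thbs1 was at 2.77 and Car3 at 3.16 on the log2 scale, Apoe at -1.11, Peg3 at -1.26 and Hsp90b1 at -1.33. Arpc2 went to 0.43, Ptprc to 1.66, Txnip to -0.66 and Clec3b to -0.99. Whether free RNA or attached immune cells took part in the other differences was not tested.

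The P2 cells also differed among themselves, in ways that share depth, selection and the mix of the mice and are given as description. The 137 cells in which Fgf10 was detected had a median of 486 UMIs against 372.5 in the rest. They held Car3 at 628 CPM against 159, Fabp4 at 1883 against 1080, Col18a1 at 1278 against 767 and Lpl at 6523 against 4741. Apoe, also of the lipid list, was at 8821 CPM in them against 8926.

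The 164 cells without Lpl were shallower (289 against 419 UMIs) and had more of the other rule genes, which they needed to be chosen, with Col15a1 at 2750 CPM against 1300 and Col5a3 at 3030 against 1745. KO cells were 119 of these 164 and 431 of the 725 with Lpl, so values are given by mouse. Apoe was at 3237 CPM in cells without Lpl against 6003 with it in KO and at 10776 against 15572 in WT, complement genes at 2571 against 3760 and at 2446 against 4877, and H19 at 758 against 396 and at 1514 against 550. Macrophage markers were at 1355 CPM against 985 in KO and at 3320 against 371 in WT. The 3320 CPM rests on 57 UMIs in 45 cells. Over all WT P2 cells these markers were highest in 1 set, WT3_p1 (2356 CPM, the next WT set 588).

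In the 122 cells with Adam12, Postn was at 7924 CPM against 5080 in KO and level in WT (4985 against 4954), while Mmp3, stromelysin, was at 462 against 938 over both mice. In the 413 cells with Col15a1, Sdc1 was at 330 CPM against 156.

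Cells with a higher P2 sum held more Col4a1, Car3 and Sparcl1 and fewer markers of other cell types. In the 249 cells with a sum of 2, the 290 with 3 to 4, the 254 with 5 to 9 and the 96 with 10 or more, Col4a1 was at 2550, 2775, 3185 and 3734 CPM. Car3 was at 76.5, 146, 277 and 443 CPM and Sparcl1 at 1441, 2158, 2119 and 3024 CPM. Fabp4 stood at 1097, 882, 1041 and 2001 CPM, so it was higher only in the last step. MHC class II genes were at 2384, 1619, 1368 and 544 CPM and endothelial markers at 663, 351, 148 and 111 CPM. The median depth of these cells was 271, 327, 549 and 1113.5 UMIs, and the part of depth in these gradients was not tested.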

How the data were processed

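The values were UMI counts per gene and cell, deposited by the authors as a single table of 14623 genes. According to the study's methods and the submitters' processing notes, the authors demultiplexed with bcl2fastq 2.20, counted UMIs after alignment with STAR to mm10, evened out depth between libraries by downsampling, removed cells by genes and mitochondrial share, and used Seurat. Counts were used here as deposited, and the sources used here do not say whether they are from before or after the downsampling, which bears on every depth given. No doublet caller was run, so doublets may be among the P2 cells. Each column was mapped to a genotype from its name and 0 columns of other samples were present. The set codes are not matched to single samples in the labels.

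The members and gene lists were chosen with earlier results of these data known. UMIs were summed over the cells of a class and genotype and scaled to CPM. Log2 ratios used a pseudocount of 5 CPM, with exact intervals of the ratio without pseudocount, conditional on the summed UMIs. Genes with at least 100 UMIs over all P2 cells were compared, list medians took members with at least 20 UMIs, and a gene was called when past 2-fold. Relative medians are list medians minus the median of all genes. T and B comparison cells were non-stromal cells with a T or B marker sum of at least 2 that exceeded the other.

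Genes named were the 7 rule genes, the 10 highest and 10 lowest KO over WT ratios among genes with separated sets, the 12 with the highest smaller ratio of P2 over P1 and P3, up to 5 members of each list by UMI count, and Ttc8; a few of these are not reported here. Other named list members (such as Plin2, Vldlr, Cd9, Lama2, Ctsk, Mmp19, Eln, Pcolce2 and the genes left higher without immune markers) were chosen after their values were seen. Gene positions are from GENCODE for GRCm38.

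Alternatives changed the stromal threshold, the P2 sum, Lpl in the list, depth, immune marker cells, barcode sets left out, pseudocount, scaling by edgeR 4.0.16 (TMM) or DESeq2 1.42.0 size factors, and count minimums. Leaving out the cells with a repeated barcode was added after seeing the data. The scripts, run with Python 3.11.15, SciPy 1.17.1 and R 4.3.3, were tested on simulated data.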

Additional observations from a re-analysis of the deposited data

Results flagged for a closer look

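In 7 of 112 groups of 5 barcode sets 1 set stood apart from the others by Dixon's criterion, and chance alone would single out about 1 group in 20. Rpsa-ps10 was at 24.1 CPM in WT4_p3 and at 0 in the other WT sets, a single UMI. Car3 was at 225 CPM in WT3_p3, with the next WT set at 98.03 CPM. The adipocyte marker list gave the same 225 CPM in that set, since Car3 was its only detected gene. Clec3b was at 697 CPM in KO5_p3, with the next KO set at 462 CPM. Penk was at 1519 CPM in WT3_p3, with the next WT set at 845 CPM. The summed macrophage markers were at 2356 CPM in WT3_p1, with the next WT set at 588 CPM. The summed Schwann cell markers were at 185 CPM in WT4_p2, with the next WT set at 49.0 CPM.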

How the results depend on the processing

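No paired analysis was possible because no test was made and the set codes carry no replicate number of the labels. Of 6809 values recomputed for 308 results, 6590 stayed within the range of the reported value (its 95% counting interval, 1 SD over the sets for list medians, or 1.5 times for gene counts), 214 moved outside it, and 5 changed sign where that range left out 0. Of the 6590 and 214, 226 had the other sign from a reported value whose range held 0. The cause was not tested. TMM and DESeq2 scaling shifted the median of all genes by 0.16 and 0.24 for KO over WT, 0.36 and 0.43 for P2 over P1 and 1.28 and 1.75 for P2 over P3, and values under them were read relative to that shift.

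The P2 share of stromal cells, KO minus WT (-13.3 points), was -4.96 without Lpl, -8.81 in cells with at least 200 UMIs and -8.75 without immune marker cells. The share of all cells (-11.5) was -5.85 without Lpl, -14.0 at a P2 sum of at least 1, -9.38 at 3, -9.39 thinned to 200 UMIs and -7.61 at a pan-stromal share of at least 8%, and -13.7 to -10.7 with 1 set left out.

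Genes higher in KO (25) numbered 11 without Lpl, 16 at a P2 sum of 3, 3 at a pan-stromal share of 8%, 3 without immune marker cells, and 3276, 379 and 3 with minimums of 1, 20 and 200 UMIs. With 1 set left out they ran from 11 to 27, with 15 without KO5_p3, 12 without KO6_p1, 14 without KO6_p2 and 11 without KO6_p3, where 440, 394, 425 and 416 genes still had 100 UMIs. Genes lower in KO (15) numbered 825 and 176 with minimums of 1 and 20 UMIs. Each setting also changed how many genes entered, 516 as reported and 197 without immune marker cells, and 11920 genes had at least 1 UMI in P2 cells. A smaller or larger count is therefore not by itself a lost or gained difference.

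List medians for KO over WT moved as follows. Matricellular genes (0.19) went to -0.0292 with cells weighted equally, a change of sign, 0.35 at a pan-stromal share of 8% and 0.34 without immune marker cells. Complement (-0.17) went to -0.42 with members of at least 100 UMIs and 0.11 at 8%, elastic fibres (-0.46) to -0.16 at 8%, lipid genes (-0.23) to 0.39 with members of at least 1 UMI, and proteases (-0.28) to -0.51 without Lpl. Basement membrane (-0.05) ran from -0.20, without KO6_p3, to 0.0564 with 1 set left out.

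For P2 over P1, basement membrane (0.31) went to -0.17 with cells weighted equally, and collagen enzymes (0.02) to -0.21 at 8% and 0.22 without immune marker cells. Complement (-0.64) went to -1.20 without Lpl, -0.995 with members of at least 1 UMI and -0.92 at 8%, with -1.02 (without KO6_p1) to -0.57 on leaving out 1 set. Lipid genes (0.63) went to 0.88 without Lpl, 0.96 with equal weights, 1.497 with members of at least 100 UMIs, 0.91 at 8% and 1.02 without immune marker cells, and 0.47 to 0.91 on leaving out 1 set. Matricellular genes (1.10) went to 0.53 with equal weights and 0.52 with members of at least 1 UMI, and SCA1 and related surface genes (-0.53) to -0.18 with members of at least 1 UMI and -0.26 at a pan-stromal share of 2%.

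Marker sums for KO over WT at a pan-stromal share of 8% were 0.91 for B cells (1.48), 0.30 for T cells (1.25), 1.09 for MHC class II (1.62) and 4.07 for adipocytes (1.90). Without Lpl they were 1.12 for MHC class II, 0.20 for macrophages (0.60) and 1.58 for pericytes (0.73). Without immune marker cells they were 3.16 for adipocytes and 0.74 for endothelium (1.51). With 1 set left out MHC class II ran from 1.34 to 2.02 (without WT3_p1) and macrophages from 0.26 (without WT4_p3) to 1.36 (without WT3_p1).

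Of single genes whose interval left out 0, 4 values changed sign, Lamb1 in KO over WT to 0.10 at a pan-stromal share of 8% and 0.0485 without immune marker cells, Lyz2 in P2 over P3 to -0.63 at 8% and Vcan in P2 over P1 to -0.0898 at 8%. Leaving out cells with a repeated barcode moved none of the shares, gene counts, list medians or marker sums named here by such an amount. Depth limits Ttc8, the Hedgehog and cilium genes and every P3 value.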
